A study of Mus musculus with 6 samples.

Results

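The Ifi200 family, also called the PYHIN family, was examined in irradiated mouse cortex with and without *Lgmn*, the gene of the lysosomal protease asparagine endopeptidase (AEP, also called legumain). The members were 10 gene names, *Mndal*, *Mnda*, *Ifi202b*, *Ifi203*, *Ifi204*, *Ifi207*, *Ifi209*, *Ifi211*, *Ifi213* and *Aim2*, matched exactly to the gene names of the count and FPKM tables. Of the 51826 genes in those tables, 9 carried one of these names, and 3 of the 9 (*Mndal*, *Ifi203* and *Aim2*) had enough counts to enter the comparison of all genes. No gene was named *Mnda*, which RefSeq lists as another name of *Ifi211*. The members were selected on their counts in *Lgmn*+/+-IR and *Lgmn*-/--IR mice, which were already known, so its genotype differences are given as a description and without p-values.

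Proteins of this family pair an N-terminal pyrin domain, which binds other pyrin domains, with C-terminal HIN domains that bind DNA, and some members carry only one of these domains. Most of the genes are induced by interferon, and they sit side by side in a single cluster whose gene number and content differ between mouse strains. The best known member, *Aim2*, senses double-stranded DNA in the cytosol and assembles an inflammasome through the adaptor encoded by *Pycard*. In the brain it is studied as a sensor of damaged DNA in microglia and in neurons.

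The study asked how AEP affects brain injury after radiotherapy, and RNA of the cortex was sequenced from 3 *Lgmn*+/+-IR and 3 *Lgmn*-/--IR mice. All 6 were male BALB/c mice aged 6 to 8 weeks that received 10 Gy of X-rays to the whole brain and were sampled on day 3, so both groups were irradiated and no unirradiated cortex was analysed here. The knockout was made by targeting embryonic stem cells, removing the selection cassette with Flp and deleting the floxed part of *Lgmn* with Cre, from a single correctly targeted clone as far as the methods describe it. Neither the strain of the stem cells nor the promoter driving Cre was given in the sources used here, so the deletion of *Lgmn* and a difference in genetic background between the groups cannot be told apart. *Lgmn* itself was counted 5558, 5528 and 5775 times in *Lgmn*+/+-IR mice versus 3703, 3269 and 4109 times in *Lgmn*-/--IR mice, a log2 fold change of -0.64 (SE 0.12), so the transcript was lower in every knockout library but not absent.

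The libraries held 41874462 to 46829441 counts on genes. Markers of cortical neurons summed to 4865 to 5834 CPM (counts scaled to library size) in *Lgmn*+/+-IR and to 5525 to 6811 CPM in *Lgmn*-/--IR. Markers of microglia summed to 336 to 365 CPM in *Lgmn*+/+-IR and to 291 to 333 CPM in *Lgmn*-/--IR, lower in every knockout library. Red cell markers moved with genotype, from 7.59 to 15.8 CPM in *Lgmn*+/+-IR to 234 to 2273 CPM in *Lgmn*-/--IR, with all 5 listed genes higher. The libraries come from different animals of each genotype, and p-values below measure the spread between these animals.

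In the reference genome (GRCm38) the 9 genes lie within 631.9 kb of chromosome 1, from 173350879 to 173982744. From the low to the high end they run *Aim2* (plus strand), *Ifi213* (minus), *Ifi209* (plus), *Ifi207* and *Ifi204* (minus), and then *Mndal*, *Ifi211*, *Ifi203* and *Ifi202b* (minus). In the GENCODE M21 annotation the *Mndal* gene (173849126 to 173942491) spans *Ifi211* (173896345 to 173913046) and most of *Ifi203* (173920407 to 173942672) on the same strand. Its exons share 37 bases with those of *Ifi203*, which is 1.02% of the exonic bases of *Mndal*, and none with *Ifi211*. A further 3.25% lies on the exons of the pseudogene *Gm38050*. RefSeq, from which the promoters below are taken, places *Mndal* at 173857215 to 173880382. That range reaches neither *Ifi211* nor *Ifi203*.

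The sequences just before the transcription starts are shown because the family is a class of interferon-induced genes, and because those of *Mndal* and *Ifi203* are almost the same. RefSeq promoters (GRCm38.p6, 250 bases before and 50 after the start) were at hand for 8 of the 9 genes, all but *Ifi204*. They were searched on both strands for the core of the interferon-stimulated response element (ISRE), written here as 2 GAAA blocks with any 2 bases between them, and for TTCNNNGAA, the core of the gamma-activated site (GAS). The windows below are on the minus strand, written 5′ to 3′, with the match and 25 flanking bases on each side, and the capitals mark the match (ISRE in the first 5, GAS in *Ifi202b*). They are sequences of the reference genome and not of the mice in the study.
Mndal, chr1:173880189-173880248: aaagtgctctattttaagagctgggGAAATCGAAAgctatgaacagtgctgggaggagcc
Ifi203, chr1:173942493-173942552: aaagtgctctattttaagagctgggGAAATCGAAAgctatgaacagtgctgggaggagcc
Ifi211, chr1:173913049-173913108: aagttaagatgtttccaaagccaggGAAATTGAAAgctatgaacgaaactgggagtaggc
Ifi207, chr1:173741816-173741875: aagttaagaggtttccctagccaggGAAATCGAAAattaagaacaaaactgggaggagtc
Ifi213, chr1:173599311-173599370: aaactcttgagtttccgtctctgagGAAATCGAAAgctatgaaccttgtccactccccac
Ifi202b, chr1:173982959-173983017: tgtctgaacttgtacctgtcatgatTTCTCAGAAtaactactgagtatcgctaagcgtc

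The ISRE letters were found in 5 of the 8 genes (62.5%), against 1079 of 27025 genes with a promoter (3.99%) and 22 of 35 interferon stimulated genes outside the family (62.9%). The matches began 73 bases before the start in *Ifi213*, and 35 to 41 bases before it in *Mndal*, *Ifi203*, *Ifi211* and *Ifi207*. A second RefSeq start of *Mndal* had a further match on the opposite strand, while a second start of *Ifi203* had no match of either motif. The GAS letters were found only in *Ifi202b* among the 8 genes (12.5%), where they lay 148 to 140 bases before the start, against 9.55% of all genes. No member held both motifs, and neither was found in the windows of *Aim2* and *Ifi209*.

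The bases before the start of *Mndal* and *Ifi203* are set side by side below, as they were aligned, with the bases that differ in capitals. They show how alike the 2 genes are in this stretch, and of the 2 only *Mndal* was at 0 in one genotype.
Mndal, chr1:173880189-173880437: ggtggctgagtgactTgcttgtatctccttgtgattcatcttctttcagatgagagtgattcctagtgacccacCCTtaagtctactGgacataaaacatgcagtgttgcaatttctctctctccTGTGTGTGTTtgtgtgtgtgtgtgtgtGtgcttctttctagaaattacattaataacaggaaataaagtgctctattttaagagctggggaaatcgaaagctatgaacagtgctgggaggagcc
Ifi203, chr1:173942493-173942731: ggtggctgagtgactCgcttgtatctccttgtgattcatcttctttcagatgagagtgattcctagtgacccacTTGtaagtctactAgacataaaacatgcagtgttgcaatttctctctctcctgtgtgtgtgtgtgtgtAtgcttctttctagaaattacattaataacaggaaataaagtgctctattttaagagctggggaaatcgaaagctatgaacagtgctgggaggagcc

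Of 239 aligned bases, 233 were identical (97.5%), and the other 6 were substitutions. The *Mndal* sequence had 10 additional bases within a TG repeat. With the 300-base windows aligned, 282 of 289 aligned bases of the pair were identical (97.6%), gaps not counted. The next pair (*Ifi207* and *Ifi211*) was 88.3% identical over 290 aligned bases. All remaining pairs with more than 100 aligned bases were between 65.1% and 72.7% identical. The transcripts are alike as well. The longest ones of *Ifi203* and *Mndal* matched at 94.4% over 643 bases, those of *Ifi211* and *Mndal* at 95.4% over 1070 bases, and those of *Ifi204* and *Ifi211* at 96.9% over 1363 bases.

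Such likeness bears on the counts, since a read that fits several genes can be credited to any of them. Of the 75-base stretches in the annotated transcripts, 63.6% of those of *Ifi211* also occur in another gene, mostly *Ifi205*. The share was 23.1% for *Ifi209*, 13.2% for *Ifi204*, 11.1% for *Mndal*, 8.07% for *Ifi213*, 5.71% for *Ifi203* and 2.8% for *Ifi207*. *Aim2* and *Ifi202b* shared none. The counts of *Ifi211* are therefore uncertain, and how reads on shared sequence were counted is not given in the sources used here.

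*Mndal* encodes a nuclear protein that carries both a pyrin and a HIN domain. Its raw counts were 12, 31 and 27 in *Lgmn*+/+-IR mice versus 0, 0 and 0 in *Lgmn*-/--IR mice. The gene was thus present in every library of one genotype and listed at 0 in every library of the other. In normalized terms it stood at 0.533 ± 0.228 CPM (SD, n = 3) in *Lgmn*+/+-IR. Set against a floor of 3 counts per library, it was at least 7.97-fold lower in *Lgmn*-/--IR. Among all 18345 tested genes, 7 were above 0 in each *Lgmn*+/+-IR library and at 0 in each *Lgmn*-/--IR library, and 11 showed the opposite.

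*Ifi203*, which encodes another nuclear HIN domain protein and lies mostly under the GENCODE span of *Mndal*, had 28, 67 and 42 counts in *Lgmn*+/+-IR. The *Lgmn*-/--IR libraries had 28, 23 and 32 counts. The groups overlapped, since replicate 1 of *Lgmn*+/+-IR was at the level of the knockout libraries. Levels were 1.05 ± 0.467 CPM against 0.618 ± 0.117 CPM (SD, n = 3 each), and the log2 fold change was -0.76 (SE 0.38). This value rested largely on replicate 2 of *Lgmn*+/+-IR, without which it was -0.35.

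As a share of the pair, *Mndal* made up 30% of the counts in replicate 1 of *Lgmn*+/+-IR (95% exact binomial interval 16.6 to 46.5%), 31.6% in replicate 2 (22.6 to 41.8%) and 39.1% in replicate 3 (27.6 to 51.6%). In *Lgmn*-/--IR it made up 0 of 28, 0 of 23 and 0 of 32 counts, which allows shares of up to 10.7%, 13% and 9.38%. Over the 3 knockout libraries together it was 0 of 83, which allows up to 3.61%. These intervals and limits cover counting error only. The shares restate the counts on which the members were selected and are a description only.

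**Figure D1:**
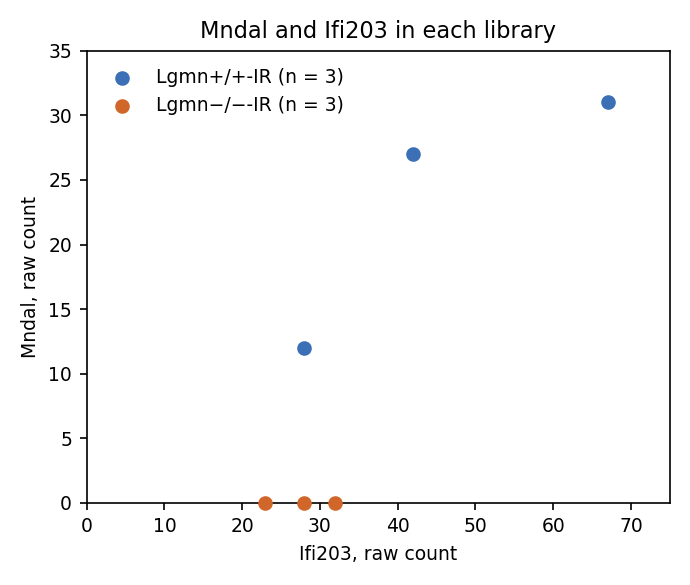
Raw counts of *Mndal* (vertical axis) against raw counts of *Ifi203* (horizontal axis), 1 point per library, 3 libraries per genotype. The *Lgmn*-/--IR points lie on the horizontal axis at 23 to 32 counts of *Ifi203*, while the *Lgmn*+/+-IR library with 28 counts of *Ifi203* had 12 of *Mndal*.

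*Aim2*, the inflammasome sensor, had counts of 59, 55 and 56 in *Lgmn*+/+-IR versus 42, 47 and 38 in *Lgmn*-/--IR. Every knockout library was below every wild-type library, which in CPM also held for 13.3% of all tested genes. On the CPM scale the levels were 1.3 ± 0.0769 against 0.941 ± 0.0734 (SD, n = 3 each), and the log2 fold change was -0.46 (SE 0.21). On the FPKM scale, which accounts for transcript length, the same libraries gave 0.568, 0.405 and 0.703 against 0.378, 0.404 and 0.33. The wild-type libraries, close in counts, were thus spread out in FPKM, and the lowest of them was level with the highest knockout library. *Aim2* overlaps the neuronal adhesion gene *Cadm3* on the opposite strand over 16817 bases but shares no exonic base with it.

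**Figure D2:**
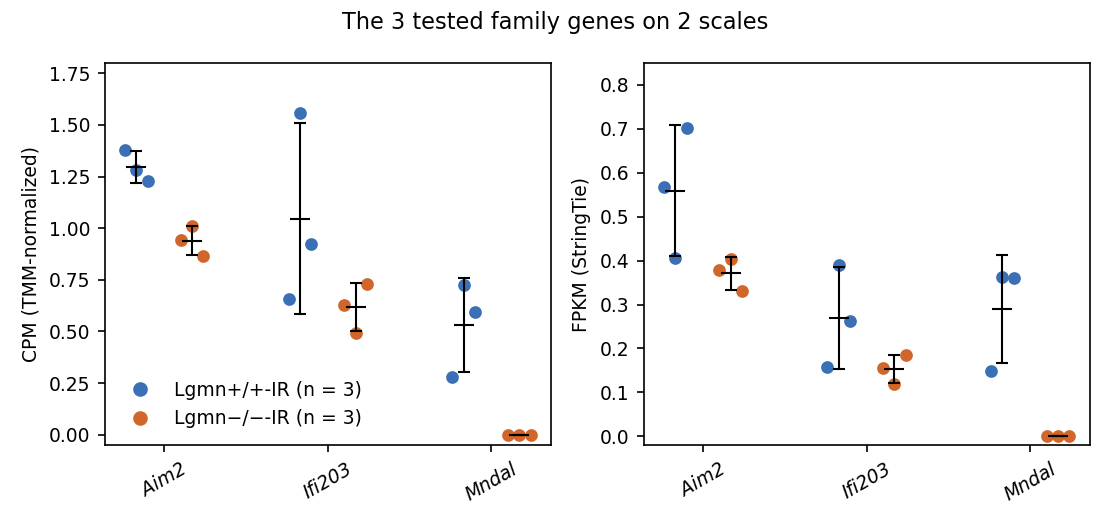
The 3 members with enough counts, as CPM (left) and FPKM (right), with 1 point per library and the mean ± SD of 3 libraries per genotype in black. The genotypes are apart for *Aim2* in CPM but nearly touch in FPKM, *Ifi203* overlaps on both scales, and *Mndal* is at 0 in *Lgmn*-/--IR on both.

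*Ifi202b*, whose product has HIN domains but no pyrin domain and is known as an antagonist of Aim2, was scarce. Counts were 4, 8 and 8 in *Lgmn*+/+-IR versus 0, 2 and 0 in *Lgmn*-/--IR, so the genotypes did not overlap. *Ifi202b* had too few counts to be tested, so no share over all genes is set beside this. The summed counts of 20 and 2 gave a depth-corrected ratio of 10.3 with a 95% counting interval of 2.5 to 90.8. Such intervals pool the 3 libraries of a genotype and cover counting error only. They leave out the spread between animals and are not tests of the members. The gene shared no 75-base stretch with another gene.

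The other members were at or near 0. *Ifi204*, the mouse relative most often compared with the human DNA sensor IFI16, was counted 5, 0 and 4 times in *Lgmn*+/+-IR. It had 2, 0 and 0 counts in *Lgmn*-/--IR, a ratio of summed counts of 4.63 (counting interval 0.958 to 44). *Ifi207*, which encodes a further pyrin and HIN domain protein, had 4, 0 and 5 against 4, 2 and 0 counts, a ratio of 1.54 (0.491 to 5.27). Both overlapped between the genotypes. *Ifi211* had 1 count in a single *Lgmn*+/+-IR library, and *Ifi209* and *Ifi213* had none in any library. The floor of 3 counts per library corresponds to 0.0646 to 0.0703 CPM at this depth, and values below it rest on 1 or 2 counts.

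**Figure D3:**
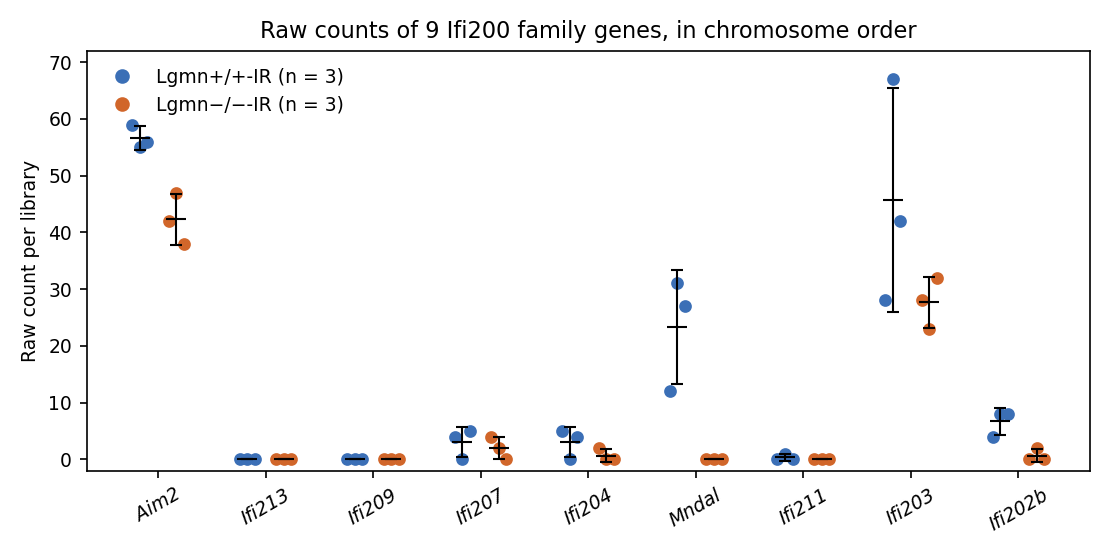
Raw counts of the 9 family genes found in the tables, in their order along the chromosome, with 1 point per library and the mean ± SD of 3 libraries per genotype in black. *Aim2*, *Mndal* and *Ifi203* carry most of the counts, and *Mndal*, *Aim2* and *Ifi202b* are the genes whose genotypes do not overlap. Of all tested genes, 13.3% were lower in every *Lgmn*-/--IR library than in every *Lgmn*+/+-IR library in CPM. *Ifi202b* had too few counts to be tested.

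The family has further genes outside the list. *Ifi203-ps*, a pseudogene of *Ifi203* between *Ifi204* and *Mndal*, was counted 0, 4 and 5 times in *Lgmn*+/+-IR versus 5, 3 and 2 times in *Lgmn*-/--IR. *Ifi205*, *Ifi206*, *Ifi208* and *Ifi214* had 0 counts in all 6 libraries. The transcript counts of the cluster thus came from a few of its genes in both genotypes.

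Ranked by FPKM in *Lgmn*+/+-IR, *Aim2* came first with 0.559 ± 0.149, followed by *Mndal* with 0.29 ± 0.123 and *Ifi203* with 0.27 ± 0.117 (SD, n = 3 each). The libraries of *Aim2* and *Mndal* did not overlap, whereas those of *Mndal* and *Ifi203* did. *Ifi202b* stood lower at 0.0778 ± 0.0248, below every library of *Ifi203*. *Ifi204* (0.0241 ± 0.021), *Ifi207* (0.0155 ± 0.0137) and *Ifi211* (0.00394 ± 0.00682) followed, and these 3 overlapped. In *Lgmn*-/--IR the order was *Aim2* (0.371 ± 0.0375), *Ifi203* (0.153 ± 0.0327), *Ifi207* (0.0113 ± 0.0113), *Ifi202b* (0.00768 ± 0.0133) and *Ifi204* (0.0057 ± 0.00987), where the last 3 overlapped and *Mndal* was listed at 0.

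Summed over the 9 genes, the family reached 112, 162 and 142 counts in *Lgmn*+/+-IR versus 76, 74 and 70 in *Lgmn*-/--IR. The sum in CPM was 3.18 ± 0.581 against 1.63 ± 0.0671 (SD, n = 3 each), and the knockout level was 0.514 of the wild-type level. Without *Mndal* it was 0.618, and on the FPKM scale with all members 0.442. *Aim2* supplied 34 to 52.7% of the family counts in *Lgmn*+/+-IR and 54.3 to 63.5% in *Lgmn*-/--IR. In whole tissue, fewer cells of a type and less RNA per cell cannot be told apart.

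Against the whole table, 611 of 18345 tested genes had an adjusted p under 0.05 (3.33%), and 377 of them also had an absolute log2 fold change over 1 (2.06%; edgeR quasi-likelihood F-test, Benjamini-Hochberg adjustment). Of the 3 tested members, *Mndal* was past both thresholds and *Ifi203* and *Aim2* were past neither. *Mndal* and *Aim2* were lower in every knockout library than in every wild-type library, as were 13.3% of all tested genes. Nothing is read from these counts, since the same contrast was in view when the members were chosen.

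The members are expressed in microglia and in blood leukocytes, so markers of other cells are given beside them. The 14 microglia markers summed to 336 to 365 CPM in *Lgmn*+/+-IR and to 291 to 333 CPM in *Lgmn*-/--IR. Of their log2 fold changes, 12 were below 0 and 2 above it, with a median of -0.14. None passed the edgeR test, while 3 had an unadjusted p under 0.05 and 1 passed with DESeq2. Markers of infiltrating leukocytes summed to 12.9 to 37.1 against 5.23 to 28.9 CPM. Much of this spread came from *Cd4*, with 206, 713 and 1227 against 1042, 89 and 106 counts. Its log2 fold change was -0.80 (SE 1.01, adjusted p = 0.716 in edgeR). Of the 16 leukocyte markers, 5 were at 0 in all libraries and 4 were tested, with 2 log2 fold changes below 0 and 2 above it. Of the 4, 1 passed, the monocyte gene *Ly6c2*, which fell from 287, 529 and 371 counts to 43, 35 and 45 (log2 fold change -3.31, SE 0.28, adjusted p = 0.00152). The integrin gene *Itgal* lay the other way, with 0, 16 and 10 against 45, 43 and 58 counts (log2 fold change 2.44, SE 0.77, adjusted p = 0.156 in edgeR). *Ccr2* and *Plac8* of the same list had too few counts to be tested. They had 8, 2 and 8 against 4, 2 and 1 counts, and 0, 0 and 3 against 8, 2 and 0 counts. The part of these cells, and of the red cell markers given above, in the levels of the family was not tested.

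Since most members are induced by interferon, 48 other interferon stimulated genes were examined, of which 45 were tested. *Ly6a*, a surface antigen of endothelial and blood cells that differs between mouse strains, rose from 150, 182 and 155 to 786, 634 and 570 counts (log2 fold change 1.99, SE 0.17, adjusted p = 0.00175, edgeR). *Gbp3*, a guanylate-binding protein, fell from 189, 209 and 198 to 117, 90 and 111 counts (log2 fold change -0.94, SE 0.18, adjusted p = 0.0374). The other 43 did not pass, and the called share was 4.44%. Their median log2 fold change was -0.04, beside -0.01 over all tested genes. *Gbp3* lost its call when any single library was left out, with adjusted p-values of 0.0644 to 0.159, while *Ly6a* kept it in each case (0.00419 to 0.0134).

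The 3 genes of the list with the highest mean FPKM did not pass either. *Ly6e*, *Ifitm3* and *B2m* (the class I light chain) had log2 fold changes of 0.34 (SE 0.16, adjusted p = 0.323), -0.40 (SE 0.20, adjusted p = 0.335) and 1.05 (SE 0.25, adjusted p = 0.0786) in edgeR. Over the whole list, 26 genes had a log2 fold change below 0 and 19 above it.

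Of 23 genes for interferon receptors and their signaling, 21 were tested and 1 passed (4.76%). *Stat2*, which carries the type I interferon signal to the nucleus, fell from 727, 663 and 774 to 531, 537 and 449 counts (log2 fold change -0.55, SE 0.11, adjusted p = 0.0496, edgeR). This call was at the threshold and was lost without any single library (adjusted p of 0.0799 to 0.16). The kinase *Jak1* and the receptor chains *Ifngr2* and *Ifnar1*, the highest by FPKM, had log2 fold changes of 0.05 (SE 0.10), 0.19 (SE 0.12) and 0.21 (SE 0.09), with adjusted p-values of 0.815, 0.452 and 0.28. The median of the 21 was 0.07.

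Of 25 genes of inflammasomes and of cytosolic DNA sensing found in the tables, some acting with *Aim2* and others in parallel routes, 19 were tested and 1 passed (5.26%). *Il18*, a cytokine that caspase-1 cleaves, rose from 502, 548 and 529 to 861, 888 and 716 counts (log2 fold change 0.60, SE 0.12, adjusted p = 0.0404, edgeR). The call was lost without any single library (adjusted p of 0.0547 to 0.144), and the median of the 19 was 0.08. Several Ifi200 proteins bind p53 or the retinoblastoma protein, and none of 10 genes for such partners passed the edgeR test after adjustment, while 2 had an unadjusted p under 0.05 and 0 passed with DESeq2 or voom.

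**Figure D4:**
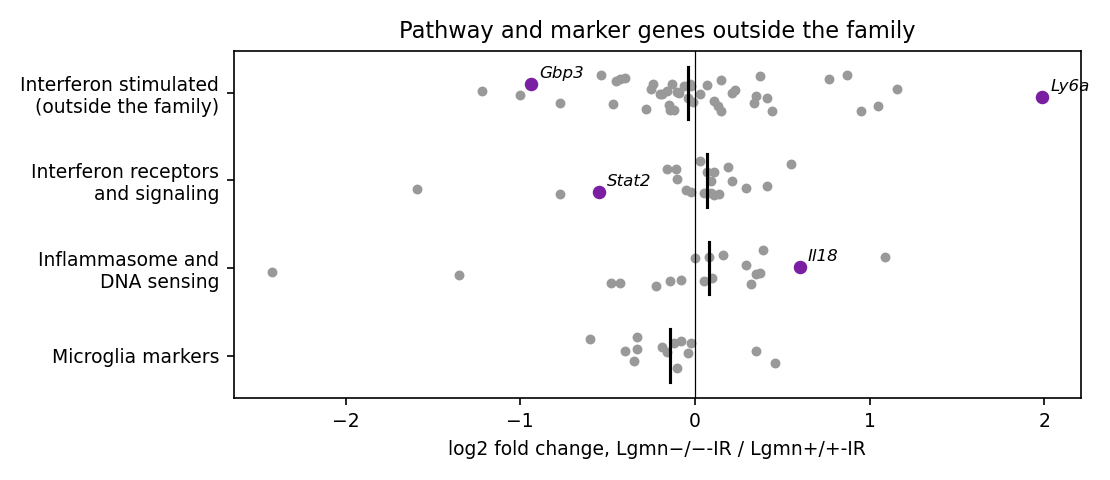
The log2 fold change (*Lgmn*-/--IR over *Lgmn*+/+-IR, horizontal axis) of each tested gene in 3 pathway lists and in the microglia markers, with a black line at the median of each list; vertical scatter within a list has no meaning. Purple points have an adjusted p under 0.05, and they are *Ly6a* and *Il18* to the right of 0 and *Gbp3* and *Stat2* to the left.

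The cluster was also set beside its neighbors on chromosome 1. Within 5 Mb on either side, 95 genes outside the family were tested, and 8 passed (8.42%, beside 3.33% of all tested genes), 3 higher and 5 lower in *Lgmn*-/--IR. In a wider window of 10 Mb on either side, 10 of 190 tested genes passed. With single libraries left out, 2 to 6 passed within 5 Mb, the fewest without replicate 2 of *Lgmn*+/+-IR. The genes next to the cluster did not pass. *Ackr1*, a chemokine receptor 0.02 Mb away, had a log2 fold change of -0.08 (SE 0.14, adjusted p = 0.79), *Cadm3* one of 0.26 (SE 0.20, adjusted p = 0.529), and *Fmn2*, an actin nucleator 0.52 Mb to the other side, one of 0.14 (SE 0.13, adjusted p = 0.627; edgeR).

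Within 1 Mb, 1 of 12 tested genes passed. It was *Vsig8*, an immunoglobulin-like surface protein gene 0.79 Mb from the cluster, counted 30, 32 and 25 times in *Lgmn*+/+-IR versus 2, 0 and 0 times in *Lgmn*-/--IR. Like *Mndal* and *Ifi202b*, it was nearly absent in the knockout libraries. The ratio of its summed counts was 44.8 with a counting interval of 12 to 375 (adjusted p = 0.0131, edgeR). The call was lost without replicate 2 of *Lgmn*+/+-IR or without replicate 3 of *Lgmn*-/--IR (adjusted p of up to 0.069).

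Farther out, *Catspere* and *Gm8010*, both annotated as pseudogenes, kept their calls when each library was left out. *Catspere*, 3.83 Mb away, rose from 0, 0 and 0 counts to 157, 150 and 154, which was at least 49.8-fold higher against the floor of 3 counts per library (edgeR adjusted p = 0.000817). *Gm8010*, 4.16 Mb away, fell from 161, 197 and 261 to 20, 27 and 15 counts (log2 fold change -3.35, SE 0.28, adjusted p = 0.00133). Near 2 Mb on the other side of the cluster, *Adamts4*, a matrix protease, *Klhdc9* and *Nectin4*, an adhesion gene, fell by 0.82, 1.36 and 1.09 on the log2 scale (adjusted p = 0.012, 0.015 and 0.0171 in edgeR). All 3 lost their calls without replicate 2 of *Lgmn*+/+-IR or replicate 3 of *Lgmn*-/--IR, *Klhdc9* and *Nectin4* also without either other *Lgmn*+/+-IR library, and *Adamts4* and *Nectin4* also without replicate 1 of *Lgmn*-/--IR. Their highest adjusted p-values were then 0.0685 (*Adamts4*), 0.0678 (*Klhdc9*) and 0.0746 (*Nectin4*). Genes at or near 0 in one genotype thus lay both inside the cluster and beyond it, in both directions. No variant data were analysed here, and whether the alleles of this region differ between the groups was not tested.

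**Figure D5:**
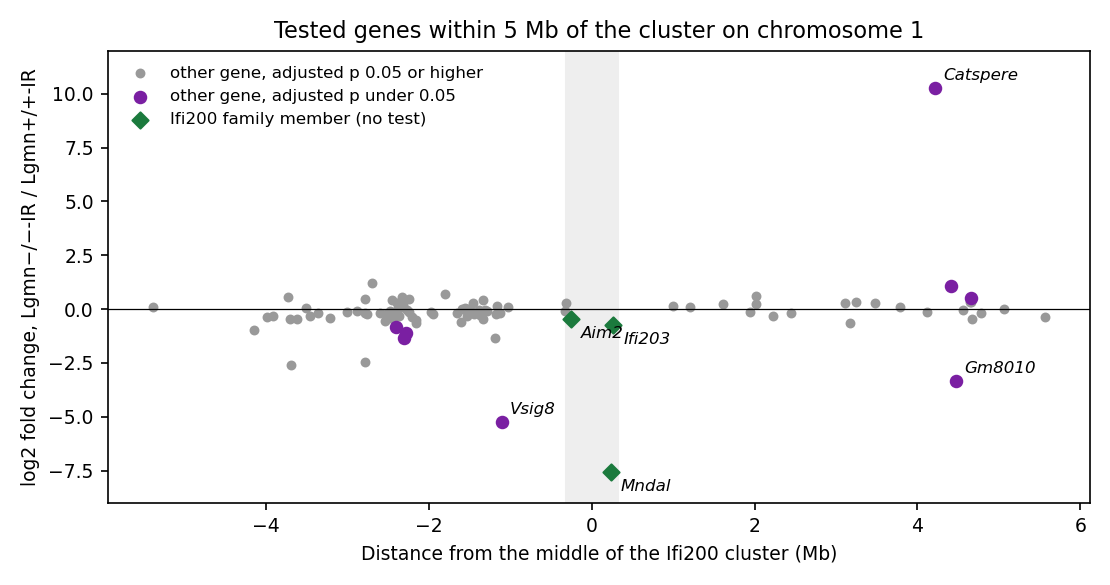
The log2 fold change (*Lgmn*-/--IR over *Lgmn*+/+-IR, vertical axis) of each tested gene against its distance from the middle of the cluster in Mb (horizontal axis), with the cluster in grey. Green diamonds are the 3 tested members, purple points other genes with an adjusted p under 0.05, and the fitted values of *Mndal* and *Catspere*, which are at 0 in one genotype, depend on the prior count and are not bounds.

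The tested genes whose CPM followed *Aim2* most closely over the 6 libraries, as log2(CPM + 0.5), were *Gm5900*, *Gm3739* and *Dpp3*, with Pearson coefficients of 0.998, 0.995 and 0.994. These are descriptions over 6 points that share the genotype contrast, and 877 of 18342 genes had a coefficient over 0.9. *Dpp3*, a peptidase gene, was counted 2504, 2267 and 2366 times in *Lgmn*+/+-IR versus 1583, 1878 and 1351 times in *Lgmn*-/--IR. Among the knockout libraries, replicate 2 was highest and replicate 3 lowest for both *Dpp3* and *Aim2*.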

How the data were processed

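RNA of 6 cortices was sequenced as poly(A)-selected libraries, and groups follow the sample labels. Trimming by the authors used Trimmomatic 0.36 and alignment used HISAT2 (GRCm38 per the labels). The deposited raw count per gene is not normalized, and the deposited FPKM values were computed by the authors with StringTie. The counting tool, its strand setting and the annotation are not given in the sources used here. Gene positions came from GENCODE M21, in which 51633 of 51826 gene IDs were found.

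Counts were fitted with edgeR 4.0.16 in R 4.3.3 (TMM, filterByExpr, quasi-likelihood F-test on genotype, Benjamini-Hochberg adjustment over 18345 genes). On simulated data it recovered 43% of 2-fold and 85% of 4-fold changes in the comparison of *Lgmn*-/--IR with *Lgmn*+/+-IR, and 6.57% of its calls were unchanged genes. CPM are TMM-normalized. Standard errors come from the F statistic. Intervals are exact at 95% and cover counting error only, and the floor is 3 counts per library. Libraries had 41874462 to 46829441 counts, and no pair of libraries of a genotype agreed within sampling noise (chi-square per gene of 29 to 104). DESeq2 1.42.0, limma 3.58.1, other scalings and filters, FPKM with pseudocounts of 1 and 0.1, and leaving out each library were the alternatives. Transcripts were aligned with blastn and promoters with Biopython 1.88.

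The members and gene lists were chosen with earlier results of these data known. The text names all members, *Lgmn* and the other family genes. In each other list it names the called genes (up to 5 in each direction) and up to 3 of the highest FPKM, around the cluster up to 6 called genes and the nearest tested gene on each side, and the 3 genes most correlated with the member of highest FPKM. *Ly6c2* is the called leukocyte marker, and *Cd4*, *Itgal*, *Ccr2* and *Plac8* were chosen after their values were seen. Protein sequences were not used here.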

Additional observations from a re-analysis of the deposited data

How the results depend on the processing

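*Mndal* (14 alternatives, -7.88 to -0.36), *Ifi203* (15 alternatives, up to -0.14) and *Aim2* (15 alternatives, -0.52 to -0.18) had log2 fold changes below 0 under every alternative that fitted them, with the values nearest 0 on log2(FPKM + 1). With at least 10 counts in every library *Mndal* was not tested. The count of members past both thresholds, 1, became 0 under that filter, on log2(FPKM + 1) and with the replicate block. With single libraries left out, it stayed at 1 without replicate 1 of *Lgmn*+/+-IR and was 0 without any other library. The summed log2 ratio of -0.96 was -1.18 in FPKM and -1.08 to -0.82 with each library left out. The counts over all genes and over members need both thresholds, and those of the lists an adjusted p under 0.05 alone. Over all genes, 377 calls became 590 with DESeq2, 228 with at least 10 counts in every library, 175 on log2(FPKM + 1) and 200 to 326 with each library left out. The 2 interferon stimulated calls became 5 with DESeq2, 1 without a filter on low counts, 1 on log2(FPKM + 0.1) and 1 to 2 with a library left out. The 1 inflammasome call became 0 with library size only, without a filter, with at least 10 counts, on both FPKM scales and without any library (0 to 0). The 1 interferon signaling call became 2 with DESeq2 and 0 with voom, RLE, library size only, no filter, at least 10 counts, both FPKM scales and without any library (0 to 0). The 8 calls around the cluster became 14 with DESeq2, 1 within 1 Mb, 10 (of 190 tested genes) within 10 Mb and 2 to 6 with a library left out. The causes were not tested, apart from *Mndal* falling to the filter. Same-numbered libraries are different animals and did not deviate together (correlations of -0.252, -0.0464 and -0.0276), so the numbers do not pair them. With the replicate block, 139 genes and 0 members were past both thresholds, and at an adjusted p under 0.05 alone the lists held 1 interferon stimulated, 0 inflammasome, 0 interferon signaling and 2 neighboring calls. Counts of at most 8 per library limit what can be said of *Ifi202b*, *Ifi204*, *Ifi207*, *Ifi209*, *Ifi211* and *Ifi213*.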
